A study of Mus musculus with 6 samples.

Results

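Gene expression in sorted thymic epithelial cells (CD45-EpCAM+) was compared with that in a haematopoietic stromal fraction (CD45+EpCAM-) of the same genotypes. The comparison uses 4 of the 6 one-colour arrays of the series, chosen by their population labels: 2 arrays of the CD45-EpCAM+ sort, called epithelial below, and 2 of the CD45+EpCAM- sort. Each fraction had 1 array from mice lacking both TNF and RelA (the double knockout) and 1 from mice lacking TNF alone (the TNF knockout), all on the C57BL/6 background and 1.5 to 2 weeks old, with RNA from 10 pooled thymi per genotype. The other 2 arrays hold CD4+CD25hi thymocytes of the same genotypes. They entered the fit that gave the p-values, through its estimate of the spread, and are cited where they bear on a probe or a marker list. By their labels all mice of the comparison lacked TNF, and no wild-type thymus was analysed here. The thymi were digested with collagenase and dispase, and both fractions were sorted from the upper layer of a Percoll gradient. By its label the CD45+EpCAM- fraction is enriched stroma with macrophages or dendritic cells. EpCAM is an adhesion molecule of epithelia, and CD45, encoded by Ptprc, is a surface phosphatase of blood cells other than mature erythrocytes.

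The thymus makes T cells from precursors that enter it and are instructed by its stroma. Cortical epithelial cells supply Notch ligands, cytokines and chemokines to immature thymocytes and present self peptides cut by a proteasome subunit of their own, Psmb11. Medullary epithelial cells express genes of many other tissues under Aire and Fezf2. Macrophages and dendritic cells clear dying thymocytes and present antigen alongside the epithelium.

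A level below is log2 of a gene's processed signal minus log2 of the 75th percentile of its array, and a difference is CD45-EpCAM+ minus CD45+EpCAM- on the log2 scale. A pair of levels of 1 fraction belongs to its double-knockout and its TNF-knockout array. A gene was tested if it was well above background, by the scanner software's own test, on both arrays of at least 1 fraction. It was called when its limma adjusted p was below 0.05, its difference was at least 2-fold and the difference had the same sign in both genotypes. A fold given as "at least" belongs to a gene that was not well above background on either array of 1 fraction, and is set against the higher of the gene's own level and the lowest level well above background there. This percentile stood at a signal of 108 and 370 on the epithelial arrays, against 675 and 633 on the CD45+EpCAM- arrays. On the epithelial arrays 47.3% and 66.2% of probes were well above background, against 65.0% and 62.1% on the CD45+EpCAM- arrays, so that the double-knockout epithelial array was the dimmest. Among the genes described, Gimap4, Itgax, Il2rb, Cxcr3, Btla, Ms4a1, Oas2, Mertk and Xcl1 were well above background on 1 of the 2 epithelial arrays. Each fraction lay on its own slide, and the CD45-EpCAM+ slide was scanned on another date than the others, so that slide and fraction cannot be told apart. With 1 array per genotype and fraction, the p-values rest on how the genotype difference varied among the 3 sorted populations of the series and do not measure the spread between pools of mice. In these bulk sorts, fewer cells of a type and less RNA per cell cannot be told apart.

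The fractions differed at a large share of genes, and the differences had mostly the same direction in both genotypes. Of 14617 genes tested, 3321 (22.7%) were higher and 2658 (18.2%) lower in the epithelial fraction, 40.9% in all. Of the calls 55.5% were higher, and 65.6% were with each array centred on its median, a scaling that moves the median difference over all genes tested to 0.14, against -0.09 here. With quantile normalization 47.0% of the calls were higher. Among the 10846 genes well above background on all 4 arrays, 9529 (87.9%) had the same sign in both genotypes, 19.5% were called higher and 18.8% lower, 38.3% in all. The median size of the difference there was 0.79, against a median gap between the genotypes of 0.30. Of 3666 genes with a difference of at least 2-fold in each genotype, 3656 had the same sign and 10 did not. Of the called genes measured on all 4 arrays, 409 were higher by at least 4 on the log2 scale and 23 lower by as much. The lowest level well above background was -2.82 and -4.78 on the epithelial arrays, against -5.54 and -5.41 on the CD45+EpCAM- arrays. A gene much lower in the epithelial fraction could thus drop out of this count more easily. How far this shaped the counts was not tested. The gene lists described below hold 550 genes, of which 537 were on the array and 476 were tested, and 200 of these were higher and 131 lower. A list member could be tested through the fraction where it was bright, so the counts describe the lists, and for lists with at least 5 members measured on all 4 arrays the median over those members is given. The counts of every list are to be read against 22.7% higher and 18.2% lower over all genes. The number of calls depended on single CD45+EpCAM- arrays. Without the double-knockout one 2089 genes were higher and 968 lower, and without the TNF-knockout one 2032 and 827.

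**Figure D1:**
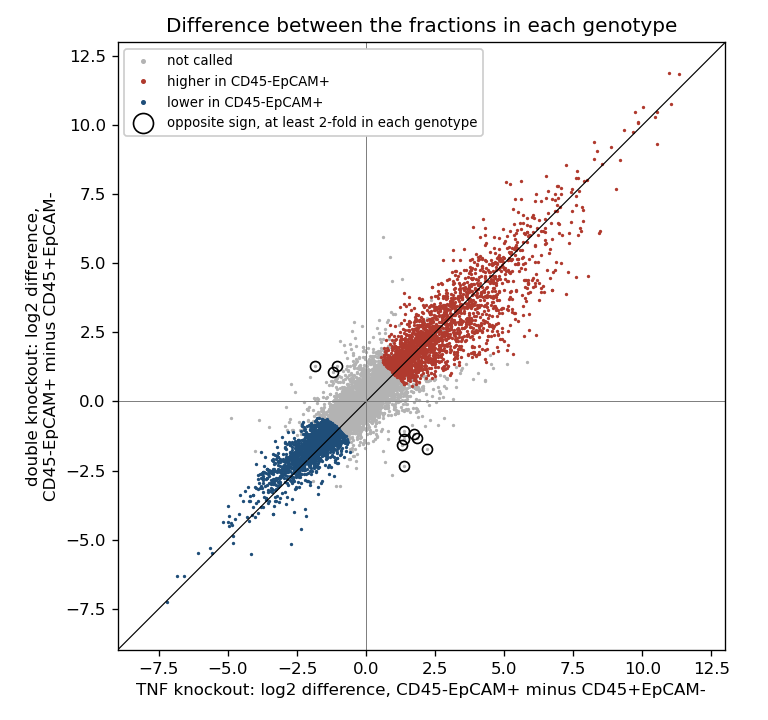
Log2 difference between CD45-EpCAM+ and CD45+EpCAM- cells in the double knockout (vertical axis) and in the TNF knockout (horizontal axis) for the 10846 genes well above background on all 4 arrays. Red points are called higher, blue points called lower and grey points not called, and black rings mark the 10 genes with opposite signs and at least 2-fold differences. Most points lie along the diagonal of equal differences.

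Both sort markers followed the gate at the RNA level. Epcam had levels of 1.49 and 2.12 on the epithelial arrays, against -4.36 and -4.36 on the CD45+EpCAM- arrays, and was higher by 6.16 (SE 0.40, limma adjusted p = 0.0024). Ptprc had levels of 0.72 and -0.46 on the epithelial arrays, against 3.67 and 3.43 on the CD45+EpCAM- arrays, a difference of -3.42 (SE 0.33, limma adjusted p = 0.0046). Neither gene overlapped between the fractions, yet both were well above background on all 4 arrays. Krt5, a keratin of medullary epithelium, had levels of 6.43 and 6.44 on the epithelial arrays, against -3.86 and -4.03 on the CD45+EpCAM- arrays (difference 10.38, limma adjusted p = 0.00087). Psmb11 had levels of 2.48 and 2.25 in the epithelial fraction and was not well above background on either CD45+EpCAM- array. Rela, the gene removed in the double knockout, had levels of 1.81 and 3.84 on the epithelial arrays and 3.30 and 4.04 on the CD45+EpCAM- arrays. Its double-knockout level was the lower in each fraction, and it was not called between the fractions (limma adjusted p = 0.14). Tnf, which all these mice lack by their labels, had levels of -2.71 and -1.49 on the epithelial arrays, against -0.64 and -0.57 on the CD45+EpCAM- arrays, and was well above background on 1 of the 2 epithelial and both CD45+EpCAM- arrays. It was called lower (difference -1.50, limma adjusted p = 0.032), a call lost with the 4 stromal arrays alone, with median centring, with normexp and without 3 of the 4 arrays in turn, and whether its probe lies in the deleted part is not given in the sources used here.

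**Figure D2:**
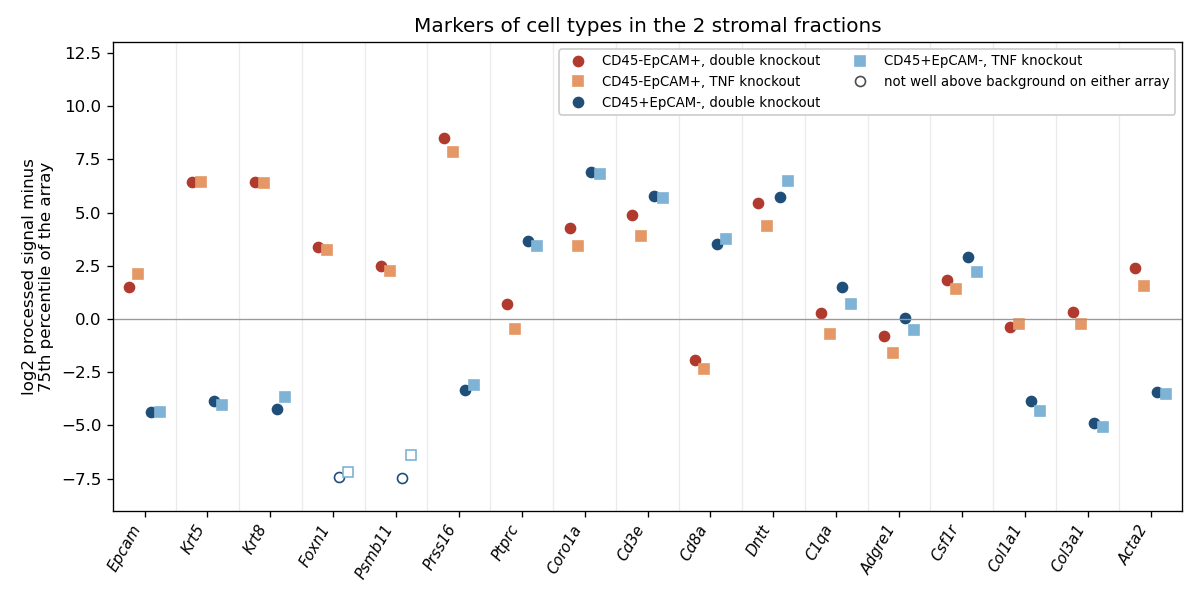
Levels of 17 marker genes on the 4 arrays (vertical axis, log2 processed signal minus the 75th percentile of the array), with CD45-EpCAM+ arrays in red and orange and CD45+EpCAM- arrays in dark and light blue. Open symbols mark a fraction in which neither array was well above background. The epithelial genes at the left are separated by up to 11.42 on the log2 scale (Prss16), while the macrophage genes C1qa, Adgre1 and Csf1r lie close together.

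The structural genes of epithelium that could be tested moved one way. Of 26 tested keratin and junction genes, 26 were higher in the epithelial fraction, against 22.7% of all genes. The 17 of them measured on all 4 arrays had a median difference of 5.20, against -0.16 over all genes measured there. Krt17, a keratin of basal and wounded epithelia, had levels of 6.17 and 6.73 on the epithelial arrays, against -4.61 and -4.30 on the CD45+EpCAM- arrays, a difference of 10.91 (SE 0.16, limma adjusted p = 0.00087). Krt8, a keratin of simple epithelia and of the thymic cortex, had 6.44 and 6.38 on the epithelial arrays, against -4.22 and -3.65 on the CD45+EpCAM- arrays (difference 10.34, SE 0.43, limma adjusted p = 0.0012). Krt5 and Krt8 stood at nearly the same level in both genotypes of the epithelial fraction. Dsp, the link of desmosomes to keratin filaments, had levels of 4.31 and 3.90 in the epithelial fraction and was at least 767-fold higher there. The smallest differences of the group were those of Jup, a plaque protein of adherens junctions and desmosomes (1.80), and Spint2, an inhibitor of serine proteases (1.51). The calls of Jup and Spint2 were lost without either CD45+EpCAM- array, and that of Jup also without the double-knockout epithelial array and with quantile normalization.

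Genes of attachment to the basement membrane went the same way. Of 13 tested integrin, laminin and collagen genes, 12 were higher and 0 lower, with a median difference of 4.14 over the 7 measured on all 4 arrays. Col4a2 and Col4a1, chains of basement membrane collagen, were at least 263-fold and at least 157-fold higher. Itgb4, the integrin chain of hemidesmosomes, had levels of 3.34 and 3.32 on the epithelial arrays, against -2.95 and -2.88 on the CD45+EpCAM- arrays (difference 6.24, SE 0.23, limma adjusted p = 0.0011). Col7a1, which encodes the collagen of anchoring fibrils, was not called (difference -0.39, limma adjusted p = 0.3).

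Regulators of epithelial identity were higher along with the structural genes. Of 13 epithelial transcription and splicing regulators tested, 12 were higher, with a median difference of 4.14 over the 9 measured on all 4 arrays. Grhl2, a grainyhead-like activator of junction genes, had levels of 1.80 and 1.42 on the epithelial arrays, against -4.67 and -4.26 on the CD45+EpCAM- arrays (difference 6.08, limma adjusted p = 0.0012). Tfap2c, Sox9 and Grhl3, further transcription factors of epithelia, were at least 35.5-fold, 32.7-fold and 33.6-fold higher, with both CD45+EpCAM- arrays dim. Trp63, the p63 factor of stratified epithelia, differed by 1.58, with levels of 4.91 and 4.51 on the epithelial arrays, against 3.18 and 3.09 on the CD45+EpCAM- arrays. Its probe also read 4.08 and 4.05 in the CD4+CD25hi thymocytes of the series, and its call was lost without either CD45+EpCAM- array. Ovol2, a repressor of mesenchymal genes, was not called (difference -0.36, limma adjusted p = 0.38), and its probe read 2.79 and 2.34 in CD4+CD25hi thymocytes.

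The transcription factors that form the thymic primordium were mostly measured in the epithelial fraction alone. Of 8 tested, 7 were higher, against 22.7% of all genes, and 6 of these were not well above background on either CD45+EpCAM- array. Those 6 entered the comparison only through the epithelial arrays, so their direction follows from the filter. Of the 2 measured on all 4 arrays, 1 was higher. Pax9, Hoxa3 and Six4 were at least 115-fold, 69.7-fold and 53.9-fold higher in the epithelial fraction. Pax1, measured on all 4 arrays, had levels of 5.07 and 4.84 on the epithelial arrays, against -5.03 and -4.99 on the CD45+EpCAM- arrays, a difference of 9.97 (SE 0.15, limma adjusted p = 0.00087). Eya1, a transcriptional coactivator of the primordium, was the exception, with levels of 4.61 and 3.86 on the epithelial arrays and 4.12 and 4.43 on the CD45+EpCAM- arrays (difference -0.04, 95% interval -1.01 to 0.92, limma adjusted p = 0.92). Its probe was as bright in CD4+CD25hi thymocytes, at 4.51 and 4.79.

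All 16 tested genes of cortical epithelium were higher, and the 10 measured on all 4 arrays had a median difference of 5.46. Prss16, the thymus-specific serine protease, had levels of 8.53 and 7.85 on the epithelial arrays, against -3.35 and -3.11 on the CD45+EpCAM- arrays, a difference of 11.42 (SE 0.31, limma adjusted p = 0.0009). Cxcl12, a chemokine for thymic progenitors, had 6.04 and 5.44 on the epithelial arrays, against -6.39 and -5.11 on the CD45+EpCAM- arrays, where 1 of the 2 arrays was well above background (difference 11.49, SE 0.54). Tbata, a gene of thymic epithelium, had 7.96 and 7.51 on the epithelial arrays, against -2.51 and -2.22 on the CD45+EpCAM- arrays (difference 10.10, SE 0.23). Prss16, Cxcl12 and Tbata were each slightly higher on the double-knockout than on the TNF-knockout epithelial array, and no fraction overlapped the other. Fgfr2, a receptor for fibroblast growth factors, and Bmp4, a morphogen of the thymic stroma, had the smallest differences of the list, 2.30 and 2.65. The call of Fgfr2 was lost without the double-knockout CD45+EpCAM- array. The 2 probes of Ccl25 disagreed in size, with differences of 1.15 and 8.72.

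Genes of medullary epithelium were mostly higher too, and several stood apart between the genotypes, a gap that was not tested. Of 12 tested, 9 were higher, and the 10 measured on all 4 arrays had a median difference of 3.17. Aire, the regulator of tissue-restricted genes, had levels of -0.86 and 1.04 on the epithelial arrays, against -5.17 and -4.82 on the CD45+EpCAM- arrays, which gives differences of 4.31 in the double knockout and 5.86 in the TNF knockout. Fezf2, the other such regulator, had 0.86 and 2.75 in the epithelial fraction and was at least 156-fold higher there. Ccl19, a ligand of Ccr7, had 1.74 and 3.53 on the epithelial arrays, against -3.32 and -3.36 on the CD45+EpCAM- arrays (difference 5.97, limma adjusted p = 0.0053). For Aire, Fezf2 and Ccl19 the TNF-knockout array was the higher epithelial one, and the fractions did not overlap. Cd80, a costimulatory ligand, and Krt10, a keratin of differentiated cells, were not called (differences -0.84 and 0.42), although Krt10 was called higher with the mean over its probes. Without the double-knockout CD45+EpCAM- array 6 of the list were called, and without the TNF-knockout one 4, Aire not among them.

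Tissue-restricted genes, of the kind that medullary cells can express, were mostly higher as well. Which cells of the sort carried their RNA was not tested. Of 20 tested, 17 were higher and 0 lower, with a median difference of 3.84 over the 8 measured on all 4 arrays. Reg3g, an antimicrobial lectin of the gut, had levels of 2.47 and 4.998 in the epithelial fraction and was at least 592-fold higher there. Csn2, the milk protein beta-casein, had 1.53 and 3.63 and was at least 267-fold higher. Pth, the parathyroid hormone gene, had 3.28 and -0.46, and Chga, a protein of endocrine granules, had 3.56 and 1.31 in the epithelial fraction. Pth and Chga were thus higher on the double-knockout epithelial array, unlike Reg3g, Csn2, Aire and Fezf2. Pth was at least 118-fold higher than in the CD45+EpCAM- fraction, and Chga differed by 6.83. Tff3, a goblet cell peptide, and Ins2, an insulin gene, were not called (differences 1.38 and 1.14). Without the double-knockout CD45+EpCAM- array 6 of the list were called, and without the TNF-knockout one 4. Without the double-knockout epithelial array 20 were called, Tff3 and Ins2 among them, and Ins2 was also called with normexp. The call of Pth was lost without either CD45+EpCAM- array and that of Chga without the TNF-knockout one.

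Large differences were also found outside the lists. Gm1987, a member of the Ccl21 chemokine family whose near-identical copies its probe may not separate, had levels of 7.90 and 8.08 on the epithelial arrays, against -3.94 and -3.26 on the CD45+EpCAM- arrays, a difference of 11.59 (SE 0.19, limma adjusted p = 0.00087). Slc46a2, a transporter of thymic stroma, differed by 10.51, Crip3, a LIM-domain protein of the thymus, by 9.97 and Alox12e, an epidermal lipoxygenase, by 9.94. Fcgbp, a mucus protein, had 4.46 and 5.71 in the epithelial fraction and was at least 1513-fold higher. Slco2a1, a prostaglandin transporter, and Wfdc18, a secreted protein, were at least 868-fold and at least 738-fold higher. Slc22a7, Shisal1, Cdh4 and Six2 were at least 658-fold, 526-fold, 502-fold and 479-fold higher.

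**Figure D3:**
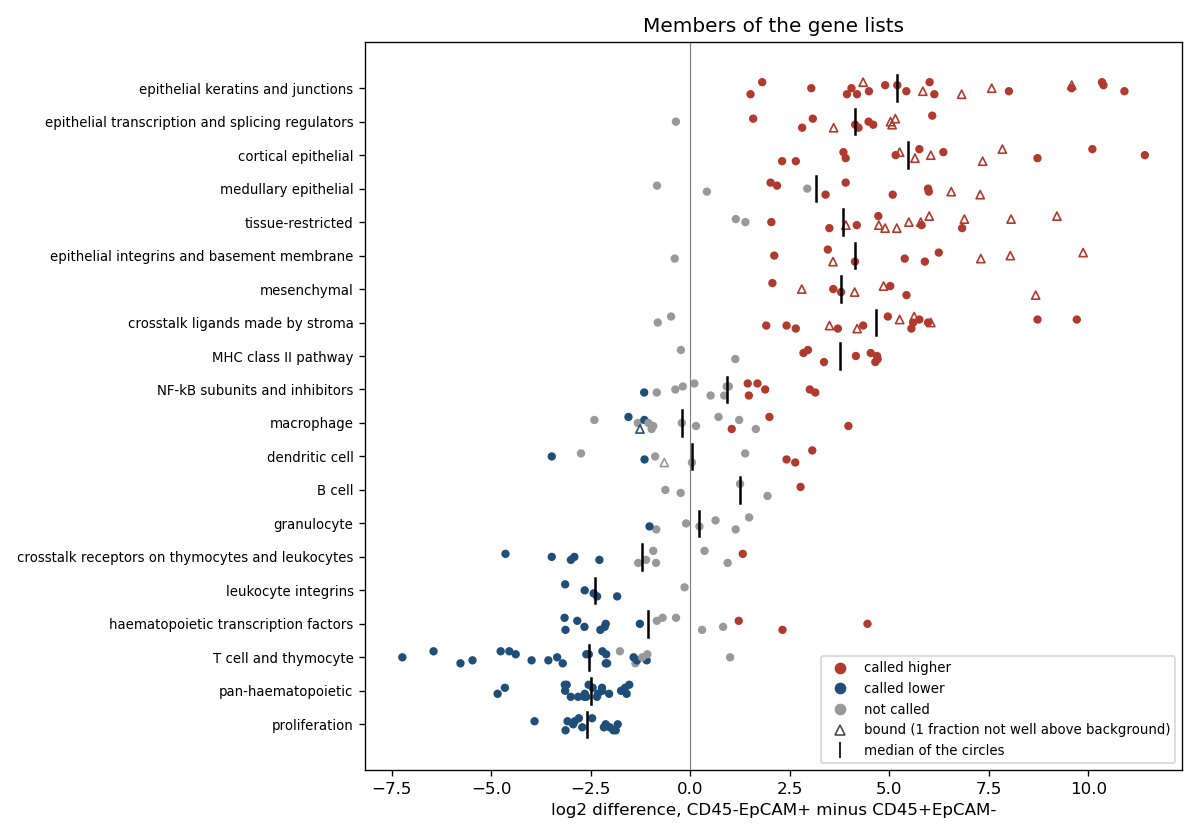
Log2 difference between CD45-EpCAM+ and CD45+EpCAM- cells (horizontal axis) for the members of 20 gene lists. Circles are genes well above background on all 4 arrays (red called higher, blue called lower, grey not called), triangles are bounds for genes dim on both arrays of 1 fraction, bars are medians of the circles, and genes dim on a single array of a fraction are not drawn. Epithelial and mesenchymal lists lie to the right, pan-haematopoietic, T cell and proliferation lists to the left, and macrophage, dendritic cell and granulocyte lists on both sides of 0.

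The pan-haematopoietic genes tested were lower in the epithelial fraction: 24 of 24 tested, against 18.2% of all genes, with a median difference of -2.51 over the 22 measured on all 4 arrays. Cytip, a regulator of leukocyte adhesion, had levels of -0.35 and -0.96 on the epithelial arrays, against 4.52 and 3.87 on the CD45+EpCAM- arrays, a difference of -4.84 (SE 0.21, limma adjusted p = 0.0013). Gimap4 and Gimap6, GTPases of lymphocytes, differed by -5.93 and -4.66. Coro1a, an actin regulator of leukocytes, had 4.29 and 3.44 on the epithelial arrays, against 6.92 and 6.82 on the CD45+EpCAM- arrays (difference -3.01). Lcp1, an actin bundler of leukocytes, had the smallest difference of the list, -1.54, and its call was lost without either CD45+EpCAM- array, with the 4 stromal arrays alone and with quantile normalization. The list also had signal in the epithelial sort, with a summed level of 6.87 and 6.86 on the epithelial arrays, against 9.42 and 9.27 on the CD45+EpCAM- arrays. Without the double-knockout CD45+EpCAM- array 17 of the list were called, and without the TNF-knockout one 12.

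The CD45+EpCAM- fraction, labelled for macrophages and dendritic cells, carried T-lineage RNA, with a summed level near that of the CD4+CD25hi thymocytes. The summed level of 25 T cell and thymocyte genes was 7.92 and 6.96 on the epithelial arrays, against 9.64 and 9.70 on the CD45+EpCAM- arrays and 9.36 and 9.41 in the CD4+CD25hi thymocytes of the series. Single genes of the sum differed in both directions between the last 2 populations. In CD4+CD25hi thymocytes Dntt had 0.53 and 1.54 and Cd8a -3.07 and -2.29, below the CD45+EpCAM- arrays. Cd2 had 6.57 and 6.65 and Cd5 6.65 and 6.65 there, above them. Between the stromal fractions 20 of 25 were lower in the epithelial fraction and 0 higher, with a median difference of -2.55. Cd2, an adhesion receptor of T cells, had levels of -1.62 and -2.02 on the epithelial arrays, against 5.63 and 5.21 on the CD45+EpCAM- arrays, a difference of -7.24 (SE 0.19, limma adjusted p = 0.00089). Cd5, a brake on T cell receptor signals, had -0.49 and -1.11 on the epithelial arrays, against 5.83 and 5.47 on the CD45+EpCAM- arrays (difference -6.45, SE 0.21, limma adjusted p = 0.00092). Cd8a, a coreceptor chain of double-positive and CD8 T cells, had -1.94 and -2.34 on the epithelial arrays, against 3.53 and 3.74 on the CD45+EpCAM- arrays (difference -5.78, SE 0.33). Cd2, Cd5 and Cd8a each separated the fractions by more than 5 on the log2 scale in both genotypes. Cd8b1, the other CD8 chain, and Zap70, a kinase of the T cell receptor, differed by -5.47 and -4.77. Ms4a4b, Itm2a, Cd6 and Gimap8, outside the list, were among the 10 largest differences in this direction of genes measured on all 4 arrays, at -6.58, -5.53, -4.98 and -4.85.

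Dntt, Rag1 and Ptcra, genes of early thymocytes, were not called, although Dntt and Rag1 were lower in the epithelial fraction in both genotypes. Dntt, the terminal transferase of receptor rearrangement, had levels of 5.47 and 4.36 on the epithelial arrays and 5.76 and 6.50 on the CD45+EpCAM- arrays, and was not called (difference -1.21, 95% interval -2.96 to 0.53, limma adjusted p = 0.17). Rag1, a subunit of the recombinase, had 3.35 and 2.64 on the epithelial arrays and 3.76 and 4.40 on the CD45+EpCAM- arrays (difference -1.08, 95% interval -2.41 to 0.24, limma adjusted p = 0.12). Ptcra, the pre-T cell receptor chain, had 3.34 and 2.46 on the epithelial arrays and 1.67 and 2.12 on the CD45+EpCAM- arrays (difference 0.999, limma adjusted p = 0.23), and was called higher without the TNF-knockout epithelial array. RNA of immature thymocytes was measured in both stromal sorts, and its part in the other differences was not tested. Dntt and Rag1 were called lower without the double-knockout CD45-EpCAM+ array and with normexp background correction. Lck and Cd3e, a kinase and a CD3 chain of the T cell receptor, had smaller differences, -2.09 and -1.34, and their calls were lost without either CD45+EpCAM- array. That of Cd3e was also lost without the TNF-knockout epithelial array, with the 4 stromal arrays alone and with quantile normalization. Without the TNF-knockout CD45+EpCAM- array 12 of the 25 genes were called.

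Promoters of some of these genes are shown because PU.1 and the RUNX factors regulate blood cell genes and the grainyhead-like factors epithelial ones. The sequences are from RefSeq, build GRCm38.p6, 250 bases before to 50 after the start of a gene, read along the gene, with the motif in capitals. The letters searched on both strands were GAGGAAGT for PU.1, TGTGGTTN for RUNX and AACNGGTT for grainyhead-like factors.
Cd5 (chr19:10738925-10739224, minus strand): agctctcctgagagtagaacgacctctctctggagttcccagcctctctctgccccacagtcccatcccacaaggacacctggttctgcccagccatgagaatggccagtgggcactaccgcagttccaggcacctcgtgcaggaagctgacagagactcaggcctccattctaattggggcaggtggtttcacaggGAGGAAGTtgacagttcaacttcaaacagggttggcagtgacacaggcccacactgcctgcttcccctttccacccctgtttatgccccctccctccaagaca
Itgb7 (chr15:102231886-102232185, minus strand): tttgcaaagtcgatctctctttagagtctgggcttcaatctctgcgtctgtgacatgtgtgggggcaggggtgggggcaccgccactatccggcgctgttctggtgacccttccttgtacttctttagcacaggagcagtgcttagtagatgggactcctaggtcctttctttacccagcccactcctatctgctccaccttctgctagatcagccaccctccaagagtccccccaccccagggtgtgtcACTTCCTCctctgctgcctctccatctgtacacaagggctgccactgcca
Lck (chr4:129573592-129573891, minus strand): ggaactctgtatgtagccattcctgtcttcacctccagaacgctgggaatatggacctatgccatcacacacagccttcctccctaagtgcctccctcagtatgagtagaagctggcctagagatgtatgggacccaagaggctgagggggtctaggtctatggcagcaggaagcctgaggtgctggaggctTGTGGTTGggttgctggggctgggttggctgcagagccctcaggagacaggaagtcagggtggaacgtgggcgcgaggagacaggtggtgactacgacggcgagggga
Cytip (chr2:58160073-58160372, minus strand): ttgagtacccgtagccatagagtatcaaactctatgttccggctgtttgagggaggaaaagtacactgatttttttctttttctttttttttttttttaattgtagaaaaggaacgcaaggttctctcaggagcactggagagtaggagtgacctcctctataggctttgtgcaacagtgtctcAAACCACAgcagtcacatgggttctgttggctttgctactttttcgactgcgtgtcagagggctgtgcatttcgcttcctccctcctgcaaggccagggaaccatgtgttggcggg
Tbata (chr10:61171714-61172013, plus strand): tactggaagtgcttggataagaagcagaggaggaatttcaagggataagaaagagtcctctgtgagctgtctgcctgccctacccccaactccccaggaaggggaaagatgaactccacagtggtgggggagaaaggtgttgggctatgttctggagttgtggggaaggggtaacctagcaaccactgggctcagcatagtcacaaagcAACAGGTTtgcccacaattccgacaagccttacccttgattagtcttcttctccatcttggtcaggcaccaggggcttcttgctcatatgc
Cd5 and Itgb7 hold the PU.1 letters, Lck and Cytip the RUNX letters and Tbata the grainyhead-like letters, with no overlap of motifs, and in Itgb7 and Cytip they are on the opposite strand. Every promoter shown holds such letters, but most promoters of their lists did not. In the T cell and thymocyte list 2 of 17 promoters held the PU.1 letters and 2 of 17 the RUNX letters. In the cortical list 1 of 13 held the grainyhead-like letters. The PU.1 letters stood in 2.80% of the promoters of genes higher in the epithelial fraction (72 of 2567), in 5.49% of those lower there (118 of 2150) and in 3.69% of all promoters in the table. The RUNX letters stood in 4.99% of the promoters of higher genes and 4.84% of those of lower genes, against 6.05% of all. The grainyhead-like letters stood in 2.53% and 2.09%, against 2.35% of all. All promoters include those of genes that were not tested. Among genes tested and not called the shares were 3.53% for PU.1, 4.845% for RUNX and 2.21% for grainyhead-like letters. A match describes letters in this window and not a bound site.

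Integrins of leukocytes were lower in the epithelial fraction, 6 of 7 tested, with a median difference of -2.39 over the 6 measured on all 4 arrays. Itgb2, the shared chain of the leukocyte integrins, had levels of -0.39 and -0.95 on the epithelial arrays, against 2.56 and 2.40 on the CD45+EpCAM- arrays (difference -3.15, SE 0.22, limma adjusted p = 0.0028). Itgb7, the chain of gut-homing integrins whose promoter is shown above, had 2.31 and 1.46 on the epithelial arrays, against 4.39 and 4.06 on the CD45+EpCAM- arrays (difference -2.34). Itgax, the CD11c chain of dendritic cells, and Itgad, an integrin chain of macrophages, differed by -3.80 and -2.43, with Itgax above background on 1 of the 2 CD45-EpCAM+ arrays. Itgal and Itga4, chains of lymphocyte integrins, differed by -2.66 and -1.84, and the call of Itga4 was lost without either CD45+EpCAM- array. Itgam, the CD11b chain, was not called (-0.15) and read 5.39 and 4.64 in CD4+CD25hi thymocytes.

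Transcription factors of blood cells were divided. Of 18 tested, 9 were lower and 3 higher in the epithelial fraction, with a median difference of -1.06 over the 16 measured on all 4 arrays. Ets1, a lymphoid factor, Fli1, an ETS factor of many blood lineages, and Ikzf1, which encodes Ikaros, differed by -3.16, -3.14 and -2.84. Cebpa, a factor of myeloid progenitors that other tissues also use, was higher, with levels of 0.56 and 0.70 on the epithelial arrays, against -3.65 and -3.99 on the CD45+EpCAM- arrays (difference 4.45, limma adjusted p = 0.0031). Runx3 and Irf4, factors of T cells and of lymphocyte activation, were not called (differences -0.36 and 0.29). The counts were 5 lower and 1 higher without the double-knockout CD45+EpCAM- array, and 4 lower and 1 higher without the TNF-knockout one.

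Macrophage genes were measured in both fractions. Of 18 tested, 4 were lower and 3 higher in the epithelial fraction, against 18.2% lower and 22.7% higher over all genes. The 15 measured on all 4 arrays had a median difference of -0.22. The summed level was 4.09 and 4.06 on the epithelial arrays, against 4.88 and 4.13 on the CD45+EpCAM- arrays and 1.32 and 1.27 in CD4+CD25hi thymocytes. C1qa, a complement subunit made by macrophages, had levels of 0.29 and -0.71 on the epithelial arrays and 1.49 and 0.72 on the CD45+EpCAM- arrays (difference -1.32, 95% interval -2.69 to 0.04, limma adjusted p = 0.085). Adgre1, a surface antigen of macrophages, had -0.81 and -1.60 on the epithelial arrays and 0.04 and -0.50 on the CD45+EpCAM- arrays (difference -0.97, 95% interval -2.08 to 0.13). Neither gene overlapped between the fractions, but neither was called, and C1qa was called with the 4 stromal arrays alone and with normexp. Csf1r, the receptor of macrophage growth factor, differed by -0.93, less than 2-fold. Marco, a scavenger receptor, was higher, with 0.53 and 0.98 on the epithelial arrays, against -3.41 and -3.02 on the CD45+EpCAM- arrays (difference 3.97, limma adjusted p = 0.0029). Mertk, a receptor for apoptotic cells, was lower by a difference of -1.84, and Timd4, another such receptor, at least 2.41-fold lower, dim on both CD45-EpCAM+ arrays. The call of Mertk was lost without the double-knockout CD45+EpCAM- array and with normexp, under which the difference of Timd4 changed sign. Without either CD45+EpCAM- array 1 of the list was higher, and 1 was lower without the double-knockout and 3 without the TNF-knockout one.

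Genes of other leukocytes were called in both directions, at shares to be read against 22.7% higher and 18.2% lower over all genes. Of 15 dendritic cell genes tested 3 were higher and 3 lower, of 11 B cell genes 1 and 2, of 11 granulocyte genes 1 and 2, and of 7 natural killer genes 0 and 3. The median difference over the members measured on all 4 arrays was 0.04 for 9 dendritic cell, 1.25 for 5 B cell and 0.23 for 7 granulocyte genes. Itgax had levels of -4.75 and -2.47 on the epithelial arrays, against -0.54 and 0.93 on the CD45+EpCAM- arrays (difference -3.80, limma adjusted p = 0.0025). Fscn1, an actin bundler of mature dendritic cells, and Cadm1, an adhesion molecule, were higher in the epithelial fraction, by 3.06 and 2.63, and Ccr7, which guides mature dendritic cells and thymocytes, was lower (-3.48). Ms4a1, the CD20 antigen of B cells, had -4.64 and -3.52 on the epithelial arrays, against 0.60 and 1.22 on the CD45+EpCAM- arrays (difference -4.99), and Ebf1, a B cell factor also used by stroma, was higher (2.77). Klrd1, a receptor chain of natural killer cells, was at least 17.3-fold lower, and Klra7, a Ly49 receptor, at least 13.6-fold. Siglech and Csf3r, genes of plasmacytoid dendritic cells and granulocytes, were called lower by small amounts (-1.15 and -1.03), but their probes read 7.42 and 7.28 and 6.94 and 6.71 in CD4+CD25hi thymocytes. The calls of Fscn1, Ccr7, Ms4a1, Siglech and Csf3r were lost without either CD45+EpCAM- array, and that of Cadm1 without the TNF-knockout one. Without the TNF-knockout epithelial array those of Fscn1, Siglech and Csf3r were lost too, without the double-knockout epithelial array that of Ms4a1, and with median centring or quantile normalization those of Siglech and Csf3r.

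Mesenchymal genes were higher in the epithelial sort. All 10 tested were higher, the 5 measured on all 4 arrays by a median of 3.79, with a summed level of 5.09 and 4.18 on the epithelial arrays, against -0.63 and -0.85 on the CD45+EpCAM- arrays. Col6a1, a collagen of connective tissue, had levels of 3.85 and 2.55 in the epithelial fraction and was at least 409-fold higher there. Dcn, the proteoglycan decorin, had 3.16 and 1.85 on the epithelial arrays, against -4.88 and -5.36 on the CD45+EpCAM- arrays, with 1 of the 2 arrays above background (difference 7.63, limma adjusted p = 0.0014). Col1a1, a chain of fibrillar collagen, had -0.37 and -0.23 on the epithelial arrays, against -3.85 and -4.32 on the CD45+EpCAM- arrays (difference 3.79). Fbn1 and Mfap5, genes of microfibrils, were at least 17.5-fold and at least 28.9-fold higher, and Pdgfrb, a receptor of pericytes and fibroblasts, differed by 2.06. Pdgfra, a defining receptor of thymic fibroblasts, was not well above background on any of the 4 arrays. The part of mesenchymal RNA in the other differences was not tested.

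Ligands by which the stroma addresses thymocytes were concentrated in the epithelial fraction. Of 22 tested, 19 were higher and 1 lower, with a median difference of 4.65 over the 14 measured on all 4 arrays. Wnt4, a signal that sustains thymic epithelium, had levels of 5.13 and 4.66 on the epithelial arrays, against -4.62 and -5.01 on the CD45+EpCAM- arrays, a difference of 9.71 (SE 0.18, limma adjusted p = 0.00087). Il7, the survival cytokine of immature thymocytes, had 0.77 and 0.36 in the epithelial fraction and was at least 65.9-fold higher there. Kitl, the stem cell factor, had -0.01 and -0.42 and was at least 38.3-fold higher. Dll4, the Notch ligand of T cell commitment, had 0.94 and 0.71 on the epithelial arrays, against -5.14 and -4.71 on the CD45+EpCAM- arrays (difference 5.75, limma adjusted p = 0.001). Tgfb2, a growth inhibitor, was at least 49.3-fold higher, while Tgfb1 (-0.82) and Flt3l, a cytokine for dendritic cells (-0.48), were not called. The lower ligand was Xcl1, a chemokine for dendritic cells that medullary epithelium and lymphocytes make, with -2.90 and -2.54 on the epithelial arrays, against -0.23 and 0.23 on the CD45+EpCAM- arrays (difference -2.72, limma adjusted p = 0.0042).

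The receptors for these ligands tended to the other fraction. Of 15 tested, 7 were lower and 1 higher in the epithelial fraction, with a median difference of -1.21 over the 12 measured on all 4 arrays. Ccr9, the receptor of Ccl25, had levels of -0.06 and -0.40 on the epithelial arrays, against 4.33 and 4.50 on the CD45+EpCAM- arrays, a difference of -4.65 (SE 0.26, limma adjusted p = 0.0018). Il2rb, a receptor chain for interleukins 2 and 15, had -4.52 and -3.09 on the epithelial arrays, against 1.91 and 1.11 on the CD45+EpCAM- arrays (difference -5.32). Cxcr3 and Cxcr6, receptors of Cxcl9, Cxcl10 and Cxcl16, differed by -3.33 and -3.002. Kit, the receptor of Kitl, was the higher one, with 0.32 and 0.85 on the epithelial arrays, against -0.70 and -0.76 on the CD45+EpCAM- arrays (difference 1.32, limma adjusted p = 0.011), and its call was lost without either CD45+EpCAM- array. Notch1, the receptor of Dll4, was not called, with -1.32 and -1.41 on the epithelial arrays and -1.56 and -1.89 on the CD45+EpCAM- arrays (difference 0.36).

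**Figure D4:**
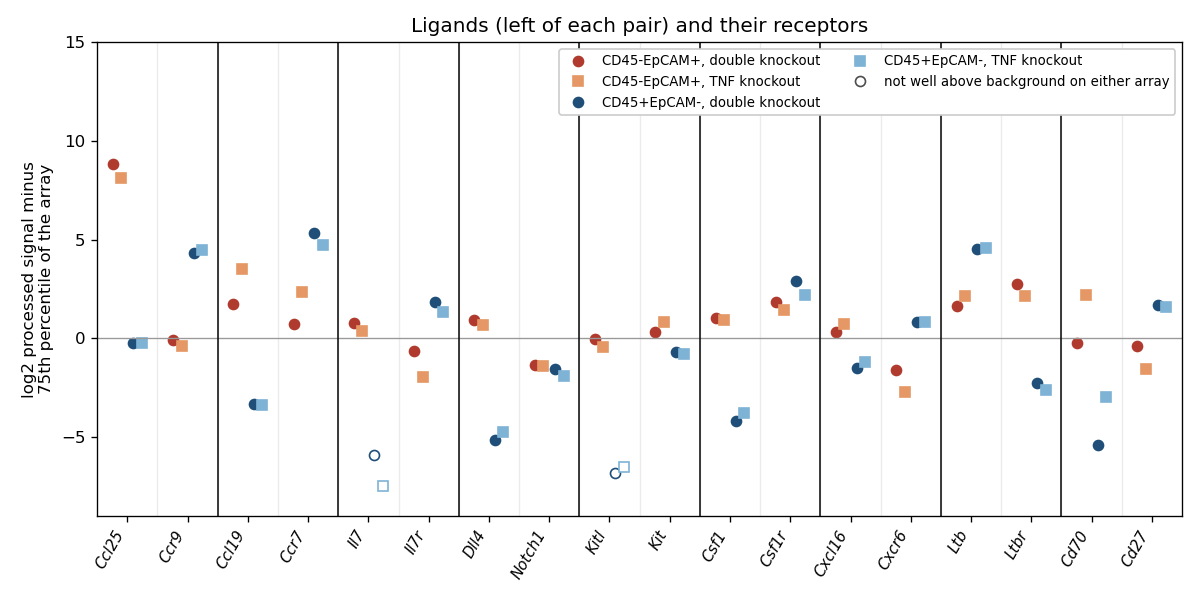
Levels of 9 ligands and their receptors on the 4 arrays (vertical axis, log2 processed signal minus the 75th percentile of the array), with CD45-EpCAM+ arrays in red and orange and CD45+EpCAM- arrays in blue, and open symbols for a fraction in which neither array was well above background. The pairs were chosen after their values were seen. Ccl25, Ccl19, Il7, Dll4, Kitl, Csf1, Cxcl16 and Cd70 are higher in the epithelial fraction, while Ltb is lower there and its receptor Ltbr higher.

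The TNF family, whose ligands from lymphocytes drive the medulla, was split between the sorts. Of 10 ligands tested 5 were lower and 1 higher in the epithelial fraction, and of 15 receptors 5 were lower and 7 higher. The median difference over the members measured on all 4 arrays was -0.67 for 5 ligands and 1.07 for 12 receptors. Ltb, the membrane lymphotoxin, had levels of 1.62 and 2.14 on the epithelial arrays, against 4.53 and 4.59 on the CD45+EpCAM- arrays (difference -2.68, limma adjusted p = 0.0048). Its receptor Ltbr had 2.77 and 2.16 on the epithelial arrays, against -2.23 and -2.59 on the CD45+EpCAM- arrays (difference 4.88, SE 0.15, limma adjusted p = 0.00092). Ligand and receptor thus stood on opposite sides, with no overlap. Tnfrsf11b, the decoy receptor of RANK ligand, had -0.05 and 2.21 in the epithelial fraction and was at least 94-fold higher there. Tnfrsf11a, which encodes RANK, and Cd40 differed by 3.90 and 3.96. The call of Tnfrsf11a was lost without either CD45+EpCAM- array, and that of Cd40 when any of the 4 stromal arrays was left out. Cd70, the ligand of Cd27, was the higher ligand, with -0.23 and 2.23 on the epithelial arrays, against -5.38 and -2.98 on the CD45+EpCAM- arrays (difference 5.18, limma adjusted p = 0.00091). Tnfsf8, the CD30 ligand, was at least 6.25-fold lower, a call lost with normexp. Without the double-knockout and without the TNF-knockout CD45+EpCAM- array 3 ligands were lower, 3 receptors were higher each time, and 2 and 1 receptors were lower.

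Both subunits of the alternative NF-kB pathway were higher in the epithelial fraction, along with inhibitors of NF-kB. Of 15 tested, 6 were higher and 1 lower in the epithelial fraction, with a median difference of 0.91 over the 15 measured on all 4 arrays. Nfkb2, the precursor subunit of the alternative pathway, had levels of 2.58 and 3.59 on the epithelial arrays, against -0.60 and 0.50 on the CD45+EpCAM- arrays (difference 3.14, SE 0.26, limma adjusted p = 0.0036). Relb, its partner, had 2.51 and 3.66 on the epithelial arrays, against -0.40 and 0.56 on the CD45+EpCAM- arrays (difference 3.001, SE 0.28, limma adjusted p = 0.0043). Both genes were lower in the double knockout than in the TNF knockout within each fraction, by about the same amount, so that the difference between fractions was alike: 2.90 and 3.10 for Relb. Nfkbia, an inhibitor of NF-kB, and Map3k14, the kinase of the alternative pathway, differed by 1.88 and 1.68. The lower gene was Chuk, a kinase of both NF-kB pathways (-1.16), and its call was lost under median centring, under quantile normalization and without either CD45+EpCAM- array. Traf3 and Tnfaip3, negative regulators, were not called (0.10 and -0.19). Without the double-knockout CD45+EpCAM- array 2 of the list were higher, and without the TNF-knockout one 4, Nfkb2 and Relb among them each time.

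RNA of most MHC class II pathway genes was higher in the epithelial fraction than in the fraction labelled for macrophages and dendritic cells. The CD45+EpCAM- arrays also carried T-lineage RNA, with a summed level of 9.64 and 9.70. Their class II levels are thus bulk values and not those of macrophages or dendritic cells alone. Of 10 tested, 8 were higher and 0 lower in the epithelial fraction, with a median difference of 3.76. Cd74, the invariant chain, had levels of 8.33 and 8.61 on the epithelial arrays, against 3.10 and 4.55 on the CD45+EpCAM- arrays, a difference of 4.65 (SE 0.33, limma adjusted p = 0.0028). H2-DMb2, a chain of the peptide exchange factor, had 1.44 and 2.13 on the epithelial arrays, against -3.68 and -2.16 on the CD45+EpCAM- arrays (difference 4.71, limma adjusted p = 0.0037). H2-Aa, a class II chain, had 5.69 and 6.39 on the epithelial arrays, against 0.44 and 2.26 on the CD45+EpCAM- arrays. H2-Aa, H2-DMb2 and Cd74 stood lower on the double-knockout than on the TNF-knockout CD45+EpCAM- array, so that the fractions were further apart in the double knockout, by 5.25 against 4.13 in the TNF knockout for H2-Aa, a gap that was not tested. H2-Ab1 and H2-Eb1, further chains, differed by 4.53 and 4.16. The calls of H2-Aa, H2-Ab1 and H2-Eb1 were lost without an epithelial array, that of H2-Aa without the TNF-knockout, that of H2-Ab1 without the double-knockout and that of H2-Eb1 without either and also without the double-knockout CD45+EpCAM- array. Ciita, the class II transactivator (1.13), and H2-Ob, an inhibitor of peptide exchange (-0.24), were not called.

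**Figure D5:**
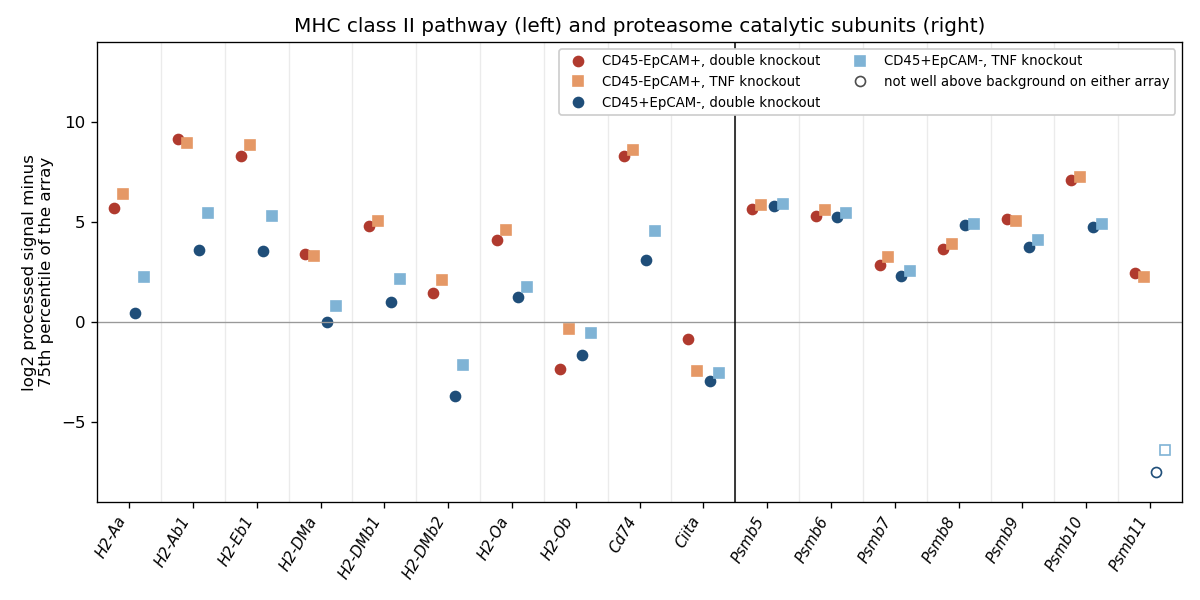
Levels of 10 genes of the MHC class II pathway and 7 catalytic proteasome subunits on the 4 arrays (vertical axis, log2 processed signal minus the 75th percentile of the array), with CD45-EpCAM+ arrays in red and orange, CD45+EpCAM- arrays in blue and open symbols for a fraction in which neither array was well above background. Class II genes apart from H2-Ob and Ciita are higher in the epithelial fraction, Psmb5 and Psmb6 lie close together, and Psmb11 is measured in the epithelial fraction only.

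None of the 3 constitutive catalytic subunits of the proteasome was called, while the other 4 were, and the median difference of the 6 subunits measured on all 4 arrays was 0.38. Psmb5 and Psmb6 were not called, at -0.11 (95% interval -0.47 to 0.25) and 0.13 (95% interval -0.24 to 0.50), with Psmb5 at 5.67 and 5.84 on the epithelial arrays and 5.83 and 5.91 on the CD45+EpCAM- arrays, and Psmb7 was under 2-fold (0.63). Psmb11, which takes the place of Psmb5 in cortical epithelium, was at least 229-fold higher. Psmb10, an immunoproteasome subunit, had 7.11 and 7.26 on the epithelial arrays, against 4.77 and 4.91 on the CD45+EpCAM- arrays (difference 2.34, SE 0.13, limma adjusted p = 0.0018). Psmb9, another, was higher by 1.17, and Psmb8, the counterpart of Psmb11 at the same site, was lower by a difference of -1.10. The calls of Psmb8 and Psmb9 were lost without either CD45+EpCAM- array, that of Psmb9 also without the double-knockout epithelial array and with normexp, and that of Psmb8 also with median centring or quantile normalization.

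Genes of MHC class I presentation and of lysosomal proteolysis differed less. Their counts are to be read against 22.7% higher and 18.2% lower over all genes. Of 11 class I genes 5 were higher and 1 lower, with a median difference of 0.97 over the 11 measured on all 4 arrays. H2-K1, a class I chain, had levels of 7.26 and 7.78 on the epithelial arrays, against 5.61 and 5.88 on the CD45+EpCAM- arrays (difference 1.78), and B2m, the light chain, differed by 1.70. Nlrc5, the class I transactivator, was lower (-1.70), a call lost without the double-knockout CD45+EpCAM- array. Without either CD45+EpCAM- array none of the class I genes was called higher. Of 11 lysosomal genes 4 were higher and 1 lower, with a median difference of 0.54 over the 11 measured on all 4 arrays. Ctsl, the cathepsin of cortical epithelium, had 9.28 and 8.36 on the epithelial arrays, against 1.95 and 2.97 on the CD45+EpCAM- arrays (difference 6.36, limma adjusted p = 0.0035). Ctse, an aspartic protease, was lower (-2.49), and Lgmn and Ctsd, further lysosomal proteases, were not called (-0.40 and -0.36). Without either CD45+EpCAM- array 2 of the lysosomal genes were higher.

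Genes that tune T cell activation, mostly ligands but with the receptors Btla and Tnfrsf14 in the list, went both ways. Of 11 tested, 5 were higher and 2 lower in the epithelial fraction, with a median difference of 0.84 over the 10 measured on all 4 arrays. Cd83, a regulator of class II turnover in cortical epithelium, had levels of 6.80 and 6.00 on the epithelial arrays, against 0.78 and 1.70 on the CD45+EpCAM- arrays (difference 5.16, limma adjusted p = 0.0044). Cd274, which encodes PD-L1, had 3.03 and 2.70 on the epithelial arrays, against 0.03 and -0.18 on the CD45+EpCAM- arrays (difference 2.94, limma adjusted p = 0.0024). Icosl, the ligand of ICOS, differed by 3.63, and Btla, an inhibitory receptor of lymphocytes, by -5.65. Cd86 was not called (-0.41). The call of Icosl was lost without either CD45+EpCAM- array, and in each case 2 of the list were called higher and 1 lower.

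Growth factor receptors and their ligands were an epithelial group. Of 14 tested, 10 were higher and 0 lower, with a median difference of 2.72 over the 11 measured on all 4 arrays. Pdgfa, a growth factor for mesenchyme, had levels of 4.21 and 3.77 on the epithelial arrays, against -2.65 and -1.74 on the CD45+EpCAM- arrays (difference 6.19, SE 0.44, limma adjusted p = 0.0028). Egfr, the epidermal growth factor receptor, had 2.26 and 1.42 on the epithelial arrays, against -7.22 and -4.67 on the CD45+EpCAM- arrays, where 1 of the 2 arrays was above background (difference 7.78), while another of its probes, above background on all 4 arrays, gave 3.97. Ddr1, a collagen receptor of epithelia, differed by 6.51, and Insr, the insulin receptor, was not called (0.42). Of the list 6 were called without the double-knockout CD45+EpCAM- array.

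Proliferation genes were lower in the epithelial fraction, 15 of 16 tested, with a median difference of -2.59. Cdk1, the mitotic kinase, had levels of -2.29 and -2.50 on the epithelial arrays, against 1.33 and 1.71 on the CD45+EpCAM- arrays by its brighter probe (difference -3.92, limma adjusted p = 0.0021), while its other probe gave 0.89. Birc5, the mitotic survivin gene, had 2.69 and 2.70 on the epithelial arrays, against 5.77 and 5.89 on the CD45+EpCAM- arrays (difference -3.14, SE 0.15, limma adjusted p = 0.0015). Top2a, Ccnb1 and Mki67, genes of dividing cells, differed by -3.09, -2.95 and -2.91. The summed level of the list was 5.86 and 5.60 on the epithelial arrays, against 8.18 and 8.39 on the CD45+EpCAM- arrays and 5.73 and 6.22 in CD4+CD25hi thymocytes. The part of thymocyte RNA in these levels was not tested. Aurkb was not called (0.23). Without the TNF-knockout CD45+EpCAM- array 8 of the list were called.

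Interferon-stimulated genes were more often higher in the epithelial fraction, 8 of 14 tested, with 2 lower and a median difference of 1.25 over the 13 measured on all 4 arrays. Oas1a, an oligoadenylate synthetase, had levels of 3.32 and 4.06 on the epithelial arrays, against -0.18 and 0.98 on the CD45+EpCAM- arrays (difference 3.29, limma adjusted p = 0.0027). Its relative Oas2 went the other way, with -2.27 and -0.94 on the epithelial arrays, against 0.69 and 1.65 on the CD45+EpCAM- arrays (difference -2.78, limma adjusted p = 0.0038). Usp18, which removes ISG15 from proteins, and Oasl2 differed by 2.38 and 4.49, and Stat2, a factor of interferon signalling, was not called (0.08). The call of Oasl2 was lost without either CD45+EpCAM- array, and 2 of the list were then higher.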

How the data were processed

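RNA of 3 sorted thymic populations from 2 genotypes was hybridised to 6 one-colour arrays, 1 for each population and genotype. The array design was 026655. Per the file headers, Agilent Feature Extraction 10.5.1.1 made the deposited intensity values; version 9.5 stands in the submitters' processing notes. Processed intensities are background-subtracted by that software and not normalized between arrays. The deposited value table holds log2 values that matched the log2 processed signal minus the 75th percentile of each array, all probes within 0.05.

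Levels were computed as log2 of the processed signal minus the log2 75th percentile of the array. Control spots and outlier-flagged spots were left out, and spots of a probe were averaged. Probes were named through accessions in a RefSeq table of build GRCm38.p6: 27466 probes (69.7%) had 1 symbol, 35 several and 11918 none. Of the probes of a gene the brightest stands for it, which gave 20862 genes. Of the listed genes 13 were not on the array and 2 were matched under newer symbols.

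The 6 arrays were fitted in limma 3.58.1 (R 4.3.3) with population and genotype as terms, and p-values were adjusted by Benjamini-Hochberg over 14617 genes. The procedure was tested on simulated data, in which nearly all genes were given no difference. Of 14417 such genes 1 was called. Of 100 genes given a difference of 1.5 on the log2 scale 10 were called, and of 100 given a difference of 3, 49. A gene not called can thus still differ between the fractions. The precision is limited by the number of arrays. The members of the comparison, the gene lists and the tests were chosen with earlier results of these data known. Named genes are the 10 largest differences in each direction among genes well above background on all 4 arrays, the 10 brightest genes measured in 1 fraction only, the 5 largest and 2 smallest differences of each list with every member of short lists, the 5 largest gaps between genotypes of opposite sign in each direction, and the cell type markers with Rela and Tnf. Six4, Kitl, Kit, Xcl1 and Chuk were named after their values were seen. Alternatives changed the scaling, background correction, filter, probe rule, fit, thresholds and arrays. Protein sequences were not used here, and promoters come from RefSeq, build GRCm38.p6. Some genes of the lists are not reported here.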

Additional observations from a re-analysis of the deposited data

Results flagged for a closer look

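In 10 genes well above background on all 4 arrays, the epithelial fraction was at least 2-fold above the CD45+EpCAM- fraction in 1 genotype and at least 2-fold below it in the other. The genes were chosen for this pattern, there is 1 array per genotype and fraction, and the difference was not tested. In 7 genes the difference was negative in the double knockout and positive in the TNF knockout. S100a9, a calgranulin of neutrophils and monocytes, had levels of 2.13 and 3.997 on the epithelial arrays, against 3.87 and 1.81 on the CD45+EpCAM- arrays, so that its difference was -1.74 in the double knockout and 2.19 in the TNF knockout, a gap of -3.93. Among the eosinophil-associated ribonucleases Ear2 had -0.97 and 1.60 on the epithelial arrays, against 1.38 and 0.22 on the CD45+EpCAM- arrays, a gap of -3.72. Its relatives Ear1, Rnase2a and Ear10 had gaps of -3.15, -2.91 and -2.89, and since these genes are near-identical copies their probes may not separate them. Hopx, a homeodomain-only protein, and Stfa2, a stefin of myeloid cells, had gaps of -2.73 and -2.41.

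In the other 3 genes the difference was positive in the double knockout and negative in the TNF knockout. Phip had levels of -0.12 and -2.26 on the epithelial arrays, against -1.17 and -1.08 on the CD45+EpCAM- arrays, a gap of 2.24. Erich5 had a gap of 2.32. Fads3, of the fatty acid desaturase family, had -2.10 and -2.76 on the epithelial arrays, against -3.39 and -0.92 on the CD45+EpCAM- arrays, a gap of 3.13.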

How the results depend on the processing

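Of 300 named genes tested, 207 were called, and 179 of these kept their direction and call under every alternative of scaling, background, filter, probe rule and fit, and 146 when each stromal array was left out in turn. No alternative called a called gene in the opposite direction except the mean over probes, with 6 genes. The sign of the difference changed, with or without a call, in 242 of the 5979 called genes with normexp, in 36 with the mean over probes and in 17 with quantile normalization. Leaving out each array in turn gave 2859 to 6554 genes called, 2032 to 3451 higher and 827 to 3103 lower, and 199 to 348 list members, 132 to 206 higher and 67 to 142 lower. The low ends came without the TNF-knockout CD45+EpCAM- array, and the remaining array of a fraction is then assumed to vary like the others. At an adjusted p of 0.01 and 4-fold, 2525 genes were called, 1868 higher and 657 lower, and 203 list members, 68 of them lower. With genes above background on all 4 arrays alone 2174 were higher, and with no filter on dim probes 6288 were, the number of genes tested differing by construction. Calls went 47.0% to the higher side with quantile normalization, 64.5% with normexp on the median signal, and 65.6% with median centring. Timd4 turned to 0.14 with normexp and Pacsin1 to -1.56 with the mean over its probes, and neither cause was tested. Ear2 ranged over -2.29 and 1.32, and Phip over -1.14 and 1.003, when an epithelial array was left out. No paired analysis by replicate number was possible because the labels give none. Genotype, which joins 1 epithelial with 1 CD45+EpCAM- array, is a term of the fit, and without it 6030 genes were called. Dimness limits the comparison: 755 tested genes were dim on both CD45+EpCAM- arrays and 786 on both epithelial arrays, and give bounds at most. The normexp alternative used the median signal, chosen after the data were seen, since the arrays' files used here hold no mean signal.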

Other observations

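Signalling and innate receptor genes outside the main groups were mixed, at shares to be read against 22.7% higher and 18.2% lower over all genes. Of 12 lymphocyte and myeloid kinases 6 were lower in the epithelial fraction and 1 higher, with a median difference of -1.98 over the 10 measured on all 4 arrays. Pik3cd, a lipid kinase of leukocytes, had levels of -0.74 and -1.70 on the epithelial arrays, against 3.33 and 2.92 on the CD45+EpCAM- arrays (difference -4.34, limma adjusted p = 0.0018), and Fyn, a kinase of the T cell receptor, differed by -3.58. Of 11 Toll-like receptors and C-type lectins 5 were lower and 0 higher (median -0.78 over 6), led by Clec4n, a lectin of myeloid cells (-3.73), while Tlr2 (0.41) and Tlr4 (1.82) were not called. Tlr4 was called higher with the 4 stromal arrays alone, with genes above background on all 4 arrays, with the intensity trend, with median centring, with no genotype term and with normexp. Of 13 complement and Fc receptor genes 4 were higher and 2 lower, with a median difference of 1.28 over the 11 measured on all 4 arrays. C3, the central complement component, had 2.39 and 4.39 on the epithelial arrays, against -0.72 and -0.17 on the CD45+EpCAM- arrays (difference 3.83, limma adjusted p = 0.013), and its call was lost without either CD45+EpCAM- array. Without either of these arrays 1 Toll-like receptor or lectin was called lower. Of the complement and Fc receptor genes 0 were called without the double-knockout one and 1 without the TNF-knockout one.

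Genes that respond to stress and stimulation went both ways. Over all genes 22.7% were higher and 18.2% lower, and the counts of this paragraph are to be read against these shares. Of 14 immediate-early genes 6 were higher and 4 lower, with a median difference of 1.01 over the 12 measured on all 4 arrays. Without the double-knockout CD45+EpCAM- array 3 were higher and 2 lower, and without the TNF-knockout one 4 and 2. Jun, a subunit of AP-1, had levels of 6.03 and 5.48 on the epithelial arrays, against 1.74 and 1.46 on the CD45+EpCAM- arrays (difference 4.16, limma adjusted p = 0.00098). Nr4a1, a nuclear receptor induced by T cell receptor signals, had 1.09 and 0.28 on the epithelial arrays, against 4.47 and 4.36 on the CD45+EpCAM- arrays (difference -3.73, limma adjusted p = 0.0059). Of 9 heat shock genes 3 were higher and 1 lower: Hspb1, a small heat shock protein of epithelia and muscle, differed by 8.79, Hspa1a, an inducible chaperone, was at least 64.1-fold higher, and Hsp90aa1 differed by -1.32. The median over the 7 measured on all 4 arrays was -0.69, and the call of Hsp90aa1 was lost without either CD45+EpCAM- array and with quantile normalization. Of 6 erythroid genes 2 were higher, namely the haemoglobin gene Hba-a1 (4.91) and Alas2, an enzyme of haem synthesis (at least 21.4-fold). Of 6 endothelial genes 1 was higher, Vwf, the von Willebrand factor (3.34), and 2 were lower, Pecam1 (-1.46) and Egfl7 (-1.41). Kdr, a receptor of vessel growth, was not called (-0.36), and its probe read 4.12 and 3.15 in CD4+CD25hi thymocytes. The median over the 5 measured on all 4 arrays was -0.36. Without either CD45+EpCAM- array 0 endothelial genes were called, and the call of Pecam1 was also lost with normexp.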
